A study of Mus musculus with 7 samples.

Results

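Calcium-calmodulin kinase II (CaMKII) and calcineurin are the kinase and the phosphatase that calmodulin switches on when calcium rises in a heart muscle cell. The 9 genes described here are Camk2a, Camk2b, Camk2d and Camk2g, which encode the alpha, beta, delta and gamma chains of CaMKII, Ppp3ca and Ppp3cb, which encode catalytic chains of calcineurin, Ppp3r1, which encodes its regulatory chain, and Rcan1 and Rcan2, which encode regulators of calcineurin. They were chosen by name from a table of 23337 gene symbols, and all 9 were present and passed the filter on low counts. Poly(A) RNA was sequenced from the left ventricles of 7 mouse embryos, dissected on embryonic day 12.5. Of these, 2 embryos were labelled mutant and carried Gt(ROSA)26Sortm1(cre/ERT2)Tyj with Tbx5flox/flox, and 5 were controls that carried the same Cre allele with Tbx5+/+. All mothers had received tamoxifen on the day before, so controls and mutants shared both the drug and CreERT2, a tamoxifen-activated recombinase that the Rosa26 locus expresses in most cell types and not in heart muscle alone. The comparison asks which left ventricular transcripts depend on Tbx5, which encodes a T-box factor that heart development needs.

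CaMKII phosphorylates calcium channels, the ryanodine receptor, phospholamban and class IIa histone deacetylases, and the delta chain is the main one of the adult heart, while the alpha and beta chains are best known from neurons. Calcineurin removes phosphate from NFAT transcription factors, which then enter the nucleus. RCAN proteins bind calcineurin and restrain it. Rcan1 is itself an NFAT target through a start site inside the gene, and the transcript from this start is widely read as a gauge of calcineurin signalling. The counts used here are for the whole gene and do not separate that transcript from those of the outer start. NFATc1 signalling in the endocardium is needed for the heart valves. Camk2a also encodes alphaKAP, an anchoring protein without a kinase domain that is known from skeletal muscle, and a count per gene does not separate it from the kinase.

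Library totals were 20268208 and 22680280 counts in the libraries labelled mutant and ran from 20385656 to 24440806 in the controls. Tbx5 had 1894 and 2602 counts in the libraries labelled mutant, against 1297 to 2165 in the controls, so the count over the whole gene, which includes exons outside the floxed part, did not check the deletion, and the genotypes rest on the labels. Xist, which marks an inactive X chromosome, stood at 380 and 509 counts scaled to a common library total (CPM) in the libraries labelled mutant, at 0.689 and 1.09 CPM in control replicates 1 and 3, and at 311 to 477 CPM in the other controls, so each library labelled mutant had Xist and not every control did. All 6 heart muscle markers were abundant in all libraries, with summed levels of 23800 and 28370 CPM in the libraries labelled mutant and 16580 to 20600 CPM in the controls. The labels name no litter or batch, so p-values measure only the spread between these embryos.

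The promoter windows of 2 of the genes are shown because their levels in CPM lay outside the control range in both libraries labelled mutant and because Rcan1 has an outer and an inner start. RefSeq (GRCm38.p6, the assembly of mm10) gave windows of 300 bases, 250 before and 50 after a start site, for 6 of the 9 genes. Capitals mark the T-box core AGGTGT and the NFAT core GGAAA on either strand, and no match of one overlapped a match of the other. The windows are Camk2d at chr3:126596701-126597000 on the plus strand, the outer Rcan1 start at chr16:92466120-92466419 and the inner Rcan1 start at chr16:92400029-92400328, both on the minus strand.
Camk2d: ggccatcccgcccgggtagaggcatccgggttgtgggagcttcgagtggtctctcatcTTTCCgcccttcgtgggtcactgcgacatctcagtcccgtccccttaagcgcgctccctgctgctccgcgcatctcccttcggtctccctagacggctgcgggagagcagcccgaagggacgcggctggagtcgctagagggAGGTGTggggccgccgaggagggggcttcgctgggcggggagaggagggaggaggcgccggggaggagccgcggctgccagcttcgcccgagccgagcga
Rcan1 outer start: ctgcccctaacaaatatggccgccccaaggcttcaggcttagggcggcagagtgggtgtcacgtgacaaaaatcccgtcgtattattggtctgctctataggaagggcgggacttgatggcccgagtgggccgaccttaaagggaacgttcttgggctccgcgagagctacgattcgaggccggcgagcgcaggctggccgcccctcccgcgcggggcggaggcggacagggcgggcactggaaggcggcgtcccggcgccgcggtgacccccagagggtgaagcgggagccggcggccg
Rcan1 inner start: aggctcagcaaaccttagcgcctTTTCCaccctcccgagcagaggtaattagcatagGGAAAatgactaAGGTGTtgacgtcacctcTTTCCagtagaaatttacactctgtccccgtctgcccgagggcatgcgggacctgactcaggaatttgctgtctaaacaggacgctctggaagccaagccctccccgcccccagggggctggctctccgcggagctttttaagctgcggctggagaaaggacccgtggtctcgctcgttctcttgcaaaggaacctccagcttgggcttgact
Camk2d held 1 T-box core and 1 NFAT core, the inner Rcan1 start 1 T-box core and 3 NFAT cores, and the outer Rcan1 start neither. Of the windows not shown, those of Camk2b and Ppp3cb held 1 T-box core each, and those of Ppp3r1 and Rcan2 held none. The levels of Camk2b and Ppp3cb overlapped between the groups. Among the genes with a window, the T-box core was thus not limited to those outside the control range. No window was available for Camk2a, Camk2g or Ppp3ca, so the comparison does not cover them. Of all 32851 windows in the RefSeq table, 13.7% held the T-box core and 61.3% the NFAT core. A match is a string of letters and not a measured binding site.

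Camk2a was the single gene of the 9 that passed the test, and it was higher in the libraries labelled mutant. Camk2a, on chromosome 18 at 60925618 to 60988152 (mm10, GENCODE M21), had 2815 and 3858 counts in mutant replicates 1 and 2, against 2076, 2417, 2217, 2211 and 2754 in control replicates 1 to 5. In CPM scaled by TMM factors this was 139.5 and 169 in the libraries labelled mutant, against 89.4, 115, 101, 109 and 112 in the controls. Both libraries labelled mutant lay above every control, and mutant replicate 2 lay farther above. The libraries labelled mutant averaged 154 ± 20.7 CPM (SD, n = 2) and the controls 105 ± 10.3 CPM (SD, n = 5), a log2 fold change of 0.55 with a standard error (SE) of 0.11 and a 95% interval of 0.30 to 0.80. In edgeR's quasi-likelihood test its adjusted p (Benjamini-Hochberg, over 14691 genes) was 0.0439. Of all genes tested 1.36% were called at the threshold of 0.05, 0.463% being higher and 0.899% lower than in the controls. An exact two-sided permutation test gave p = 0.0476, the smallest value that 2 against 5 libraries allow.

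The call of Camk2a did not hold in every subset of the libraries. It was lost without control replicate 1, 2, 3 or 4 (adjusted p = 0.0803, 0.0753, 0.0764 and 0.0567, edgeR quasi-likelihood), while the log2 fold change, at 0.50, 0.59, 0.54 and 0.57, moved little. It was also lost among the 5 libraries that expressed Xist (adjusted p = 0.171 by the same edgeR test), and without mutant replicate 2 (0.37, log2 fold change 0.42). With 1 library labelled mutant left, the spread comes from the controls alone, and the lone library is assumed to vary as they do. Without mutant replicate 1, on the same terms, Camk2a was called (adjusted p = 0.0404 by the edgeR test, log2 fold change 0.68).

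Camk2d, the main CaMKII gene of the adult heart, on chromosome 3 at 126596302 to 126846326, had the next largest difference and did not pass. It had 3772 and 4797 counts in the libraries labelled mutant, against 3048, 3070, 3021, 3302 and 3964 in control replicates 1 to 5. In CPM these were 187 and 209.9 in the libraries labelled mutant, against 131, 146, 137, 163 and 161 in the controls. Both libraries labelled mutant again lay above every control, and mutant replicate 2 was the higher. The log2 fold change was 0.43 (SE 0.10), with a 95% interval of 0.20 to 0.66 and an adjusted p of 0.0767 by the edgeR quasi-likelihood test. Camk2d was called by DESeq2 (adjusted p = 0.009) and by the edgeR likelihood ratio test (0.0134). The authors' deposited table lists Camk2d at a log fold change of 0.42 with a false discovery rate of 0.0193, and Camk2a at 0.55 with 0.00115, and it lists none of the 7 other genes.

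Camk2g, a chain expressed in many tissues, on chromosome 14 at 20734875 to 20794088, differed less. It stood at 101 and 108 CPM in the libraries labelled mutant, against 80.6, 86.6, 79.3, 88.7 and 99.9 CPM in control replicates 1 to 5. The groups did not overlap, but mutant replicate 1 exceeded control replicate 5 by little. The log2 fold change was 0.26 (SE 0.10, 95% interval 0.04 to 0.48), with an adjusted p of 0.206 by the edgeR quasi-likelihood test. Of the 9 genes, 4 had no overlap between the groups, as was so for 20.2% of all tested genes. Camk2a, Camk2d and Camk2g were higher than every control in both libraries labelled mutant, as were 9.73% of all tested genes. All 3 had their lowest control values in replicates 1 and 3, the controls almost without Xist, as did Rcan2. Over all tested genes, replicates 1 and 3 were the 2 lowest controls for 9.63%. Among the libraries that expressed Xist the log2 fold changes were 0.46 for Camk2a, 0.34 for Camk2d and 0.19 for Camk2g.

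Camk2b, the beta chain, on chromosome 11 at 5969644 to 6066362, was the scarcest of the 9. Its counts were 76 and 148 in the libraries labelled mutant, against 129, 88, 82, 69 and 147 in control replicates 1 to 5. Mutant replicate 1 lay among the low controls and mutant replicate 2 above them all, so the groups overlapped. The log2 fold change was 0.16 (SE 0.27), and changes between -26.4% and 70.5% lie within its 95% interval.

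**Figure D1:**
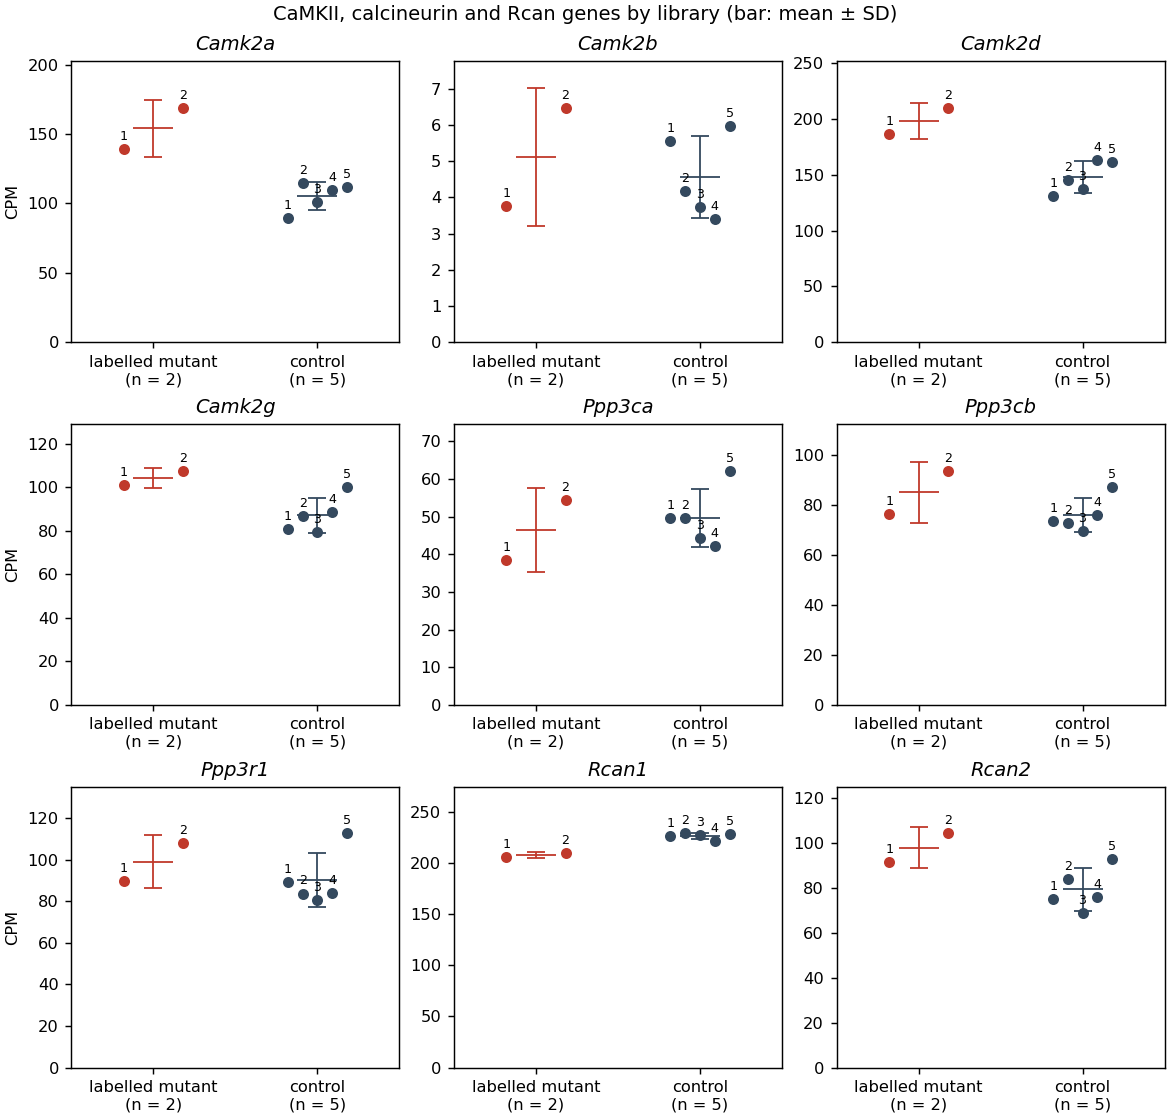
Level of each of the 9 genes in CPM (vertical axis, from 0) in the 2 libraries labelled mutant (red, left) and the 5 controls (dark, right). Points are libraries with their replicate numbers, and bars are the mean ± SD. The groups do not overlap for Camk2a, Camk2d, Camk2g and Rcan1.

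The 3 calcineurin chains did not pass the test in either direction. Ppp3ca, the catalytic chain A alpha, on chromosome 3 at 136670124 to 136937727, stood at 38.6 and 54.4 CPM in the libraries labelled mutant, against 49.6, 49.6, 44.4, 42.3 and 62.2 CPM in control replicates 1 to 5. Mutant replicate 1 was below all controls and mutant replicate 2 above all but control replicate 5. Its log2 fold change was -0.09 (SE 0.16, 95% interval -0.46 to 0.27), and the sign turned without control replicate 5 (0.0080) or mutant replicate 1 (0.13).

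Ppp3cb, the catalytic chain A beta, on chromosome 14 at 20499364 to 20546573, stood at 76.4 and 93.9 CPM in the libraries labelled mutant, against 73.7, 72.9, 69.8, 76.1 and 87.5 CPM in the controls. Its log2 fold change was 0.16 (SE 0.11, 95% interval -0.08 to 0.41). Ppp3r1, the calcium-binding chain B, on chromosome 11 at 17159263 to 17200375, stood at 89.9 and 108 CPM in the libraries labelled mutant, against 89.0, 83.7, 80.6, 84.1 and 113 CPM in the controls. Both genes were high in mutant replicate 2 and control replicate 5 and lower in the 5 other libraries. The log2 fold change of Ppp3r1 was 0.14 (SE 0.13, 95% interval -0.16 to 0.43), and the adjusted p of the 3 chains ran from 0.470 to 0.809 (edgeR, quasi-likelihood). Of the annotated exon sequence of Ppp3r1, 14.3% is shared with Wdr92, a gene on the same strand, which makes its counts less certain. The exons of the other 8 genes overlap no annotated gene.

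Rcan1 and Rcan2 had differences of opposite sign, and neither passed the test. Rcan1, on chromosome 16 at 92391953 to 92470867, stood at 206 and 210.2 CPM in the libraries labelled mutant, against 226, 229, 227, 221 and 229 CPM in control replicates 1 to 5. Both libraries labelled mutant were below every control, and the controls lay close together. The libraries labelled mutant averaged 208 ± 2.97 CPM (SD, n = 2) and the controls 226.5 ± 3.17 CPM (SD, n = 5), a difference of -8.10% with a 95% interval of -18.1% to 3.05%. In edgeR's quasi-likelihood test, which shares its estimate of spread in part with other genes, the adjusted p was 0.425. The exact two-sided permutation test gave p = 0.0476, the smallest it can give. Of the 9 genes Rcan1 was the 1 with both libraries labelled mutant below the controls, as 10.4% of all tested genes were.

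Rcan2, the second regulator, on chromosome 17 at 43801351 to 44039516, stood at 91.6 and 104 CPM in the libraries labelled mutant, against 75.0, 84.0, 68.8, 76.1 and 93.2 CPM in the controls. Mutant replicate 1 fell just below control replicate 5, and the groups overlapped there only. Its log2 fold change was 0.30 (SE 0.12, 95% interval 0.05 to 0.56), with an adjusted p of 0.211 by the edgeR quasi-likelihood test. The ratio of Rcan1 to Rcan2 counts was 2.25 and 2.01 in the libraries labelled mutant and 2.46 to 3.31 in the controls, so the libraries labelled mutant had the lowest ratios.

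**Figure D2:**
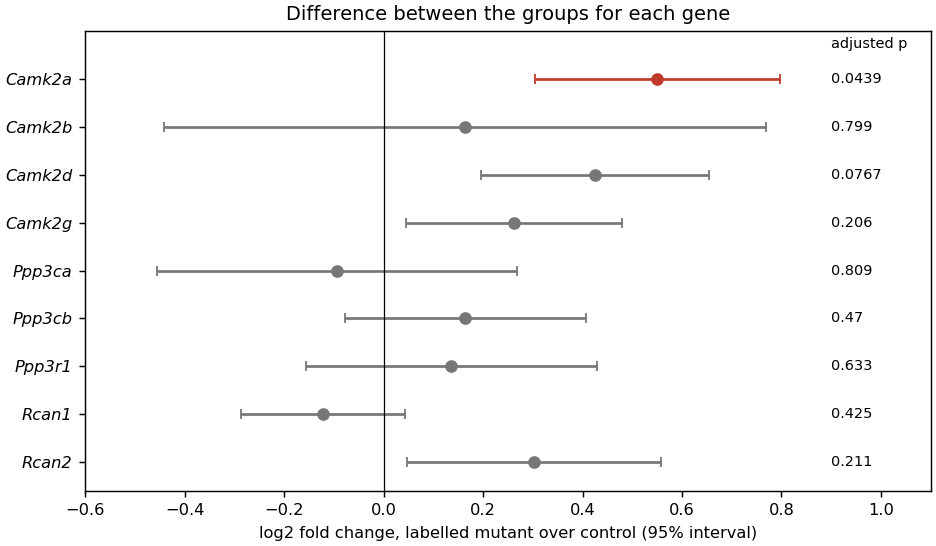
Log2 fold change of each gene, libraries labelled mutant over controls (horizontal axis), with its 95% interval and, at the right, its adjusted p from the edgeR quasi-likelihood test. Camk2a, in red, is the gene with an adjusted p under 0.05, and the intervals of Camk2d, Camk2g and Rcan2 also exclude 0.

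Over the 9 genes, 1 was called higher and 0 lower, and the median log2 fold change was 0.16, with 7 of 9 above 0. Over all tested genes 48.6% were above 0 and the median was -0.0080. At an unadjusted p under 0.05 there were 4, Camk2a, Camk2d, Camk2g and Rcan2, where 17.6% of all tested genes had such a p.

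The libraries of a group did not vary independently from gene to gene. Mutant replicate 2 exceeded mutant replicate 1 for all 9 genes, where this held for 50.5% of all tested genes. Control replicate 5 was the highest control for 6 of the 9, the exceptions being Camk2a, Camk2d and Rcan1, where this held for 27.6% of all tested genes. For Ppp3ca, Ppp3cb and Ppp3r1 control replicate 5 stood 0.33, 0.20 and 0.32 above the control mean on the log2 scale, and mutant replicate 2 stood 0.13, 0.30 and 0.26 above it. Rcan1 had the narrowest spread of the 9 in the controls, from -0.03 to 0.02 about their mean. With control replicate 5 and mutant replicate 2 both left out, the log2 fold changes were 0.44 for Camk2a, 0.38 for Camk2d and 0.28 for Camk2g, and none was called (adjusted p = 0.216, 0.24 and 0.271, edgeR quasi-likelihood).

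**Figure D3:**
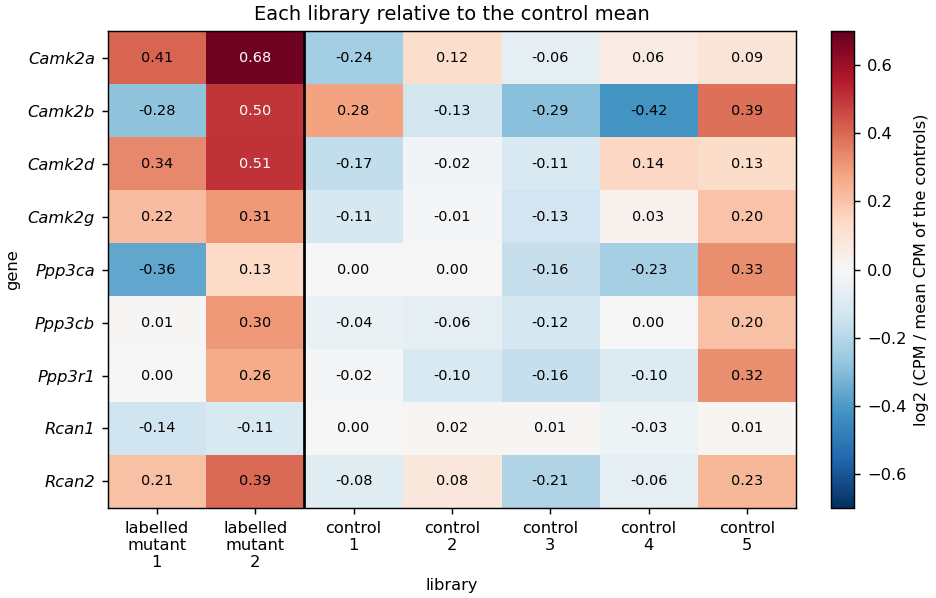
Heat map of each gene (down) in each library (across), as the log2 ratio of its CPM to the mean CPM of the 5 controls. The 2 libraries labelled mutant are left of the black line. Camk2a and Camk2d are highest in both libraries labelled mutant, and the calcineurin genes are high in mutant replicate 2 and control replicate 5.

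Levels can be compared between genes only per length. Per kilobase of all annotated exons, Rcan1 was the most abundant, at 67.5 CPM per kilobase in the libraries labelled mutant and 73.4 in the controls. In the libraries labelled mutant Ppp3r1 followed at 30.6 CPM per kilobase, then Rcan2 at 22.4, Camk2a at 20.6, Camk2g at 16.3, Ppp3cb at 9.67, Camk2d at 8.82, Ppp3ca at 4.66 and Camk2b at 0.561. In the controls the levels were 27.9 CPM per kilobase for Ppp3r1, 18.2 for Rcan2, 14.1 for Camk2a, 13.6 for Camk2g, 8.63 for Ppp3cb, 6.57 for Camk2d, 4.97 for Ppp3ca and 0.501 for Camk2b. The order was the same in both groups. Camk2a and Camk2g were not separated in the controls, with ranges of 11.97 to 15.37 and 12.39 to 15.61 CPM per kilobase, and Camk2g was the higher of the pair in control replicates 1 and 5. Camk2d and Ppp3ca had ranges that met, 5.83 to 7.27 and 4.24 to 6.23, but Camk2d was above Ppp3ca within each of the 7 libraries. The place of Camk2d depends on the length used: its annotated exons sum to 22493 bases over 28 transcripts, while the median of its coding transcripts is 4169 bases. On the median coding transcript the control levels were 102 CPM per kilobase for Rcan1, 60.7 for Camk2a, 35.4 for Camk2d, 31.5 for Ppp3r1, 27.3 for Rcan2, 24.3 for Camk2g, 23.9 for Ppp3cb, 14.3 for Ppp3ca and 2.38 for Camk2b.

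Within the CaMKII family, per kilobase of annotated exons, Camk2a made up 43.2% and 45.7% of the summed level in the libraries labelled mutant, against 38.6% to 42.9% in the controls. Camk2g made up 36.6% and 34% in the libraries labelled mutant, against 37.8% to 40.6% in the controls. Neither share overlapped between the groups on this length. Per kilobase of the median coding transcript, a length chosen after the data were seen, Camk2a made up 51.7% and 53.8% in the libraries labelled mutant and 47.5% to 51.9% in the controls, which overlapped, and Camk2g 18.2% and 16.6% in the libraries labelled mutant and 19.0% to 20.8% in the controls, which did not. On annotated exons the share of Camk2d overlapped, at 19.2% and 18.9% in the libraries labelled mutant and 18.1% to 20.1% in the controls. Of the summed calcineurin level, Ppp3r1 made up 69.0% and 67.5% in the libraries labelled mutant and 66.2% to 68.3% in the controls, which overlapped.

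The 9 genes were also set against the heart muscle markers. The summed level of the 6 markers, Tnnt2, Myh6, Myh7, Actn2, Ryr2 and Myl3, did not overlap between the groups, as given above. None of the 6 was called, with log2 fold changes of 0.20 to 0.57. Myh7 weighed most in the sum, at a mean of 13260 CPM in the libraries labelled mutant and 8911 CPM in the controls. It also had the largest log2 fold change of the 6, while Myh6 and Ryr2 on their own overlapped between the groups. For each 1000 CPM of these markers, Camk2a had 5.86 and 5.95 CPM in the libraries labelled mutant and 5.39 to 5.97 in the controls. Camk2d had 7.86 and 7.40 CPM in the libraries labelled mutant and 7.56 to 8.20 in the controls. On this scale, chosen after the data were seen, the groups overlapped for both. They also overlapped for Camk2b, which had 0.158 and 0.228 CPM in the libraries labelled mutant and 0.171 to 0.335 in the controls, with its highest value in control replicate 1, the library with the lowest marker sum. Camk2g was lower on it, at 4.25 and 3.79 CPM in the libraries labelled mutant against 4.37 to 4.86 in the controls. Rcan1 was lower too, at 8.66 and 7.41 CPM in the libraries labelled mutant against 11.1 to 13.6 in the controls. Each calcineurin chain was below every control on it, and Rcan2 overlapped. The marker sum itself was higher in both libraries labelled mutant, so a gene with unchanged CPM comes out lower on this scale. In CPM the log2 fold changes of Ppp3ca, Ppp3cb and Ppp3r1 were -0.09, 0.16 and 0.14. The share of all tested genes that were lower on this scale was not counted. In bulk tissue, fewer cells of a type and less RNA per cell cannot be told apart.

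**Figure D4:**
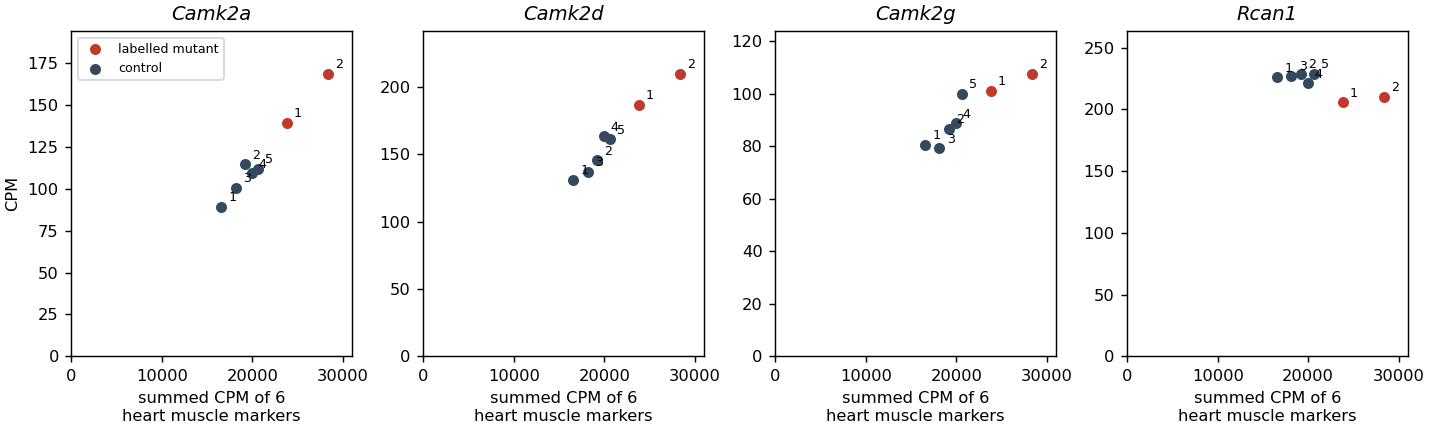
Level in CPM of Camk2a, Camk2d, Camk2g and Rcan1 (vertical axes, from 0) against the summed CPM of 6 heart muscle markers (horizontal axes) in the 2 libraries labelled mutant (red) and the 5 controls (dark), with replicate numbers. Camk2a and Camk2d are higher where the markers are higher, with both libraries labelled mutant at the upper right, while Rcan1 is lower there.

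Markers of some other cell types moved too. The 7 markers of cushion mesenchyme and fibroblasts summed to 1178 and 1166 CPM in the libraries labelled mutant, against 2011 to 3438 CPM in the controls, with 6 of 7 called lower. The 7 macrophage markers summed to 168 and 116 CPM in the libraries labelled mutant and 175 to 253 CPM in the controls, with 3 called lower. The 5 atrial muscle markers summed to 504.9 and 445.5 CPM in the libraries labelled mutant, against 752.9 to 1603 CPM in the controls, with all 5 called lower. The 6 epicardial markers summed to 309.6 and 231 CPM in the libraries labelled mutant and 308.7 to 440.9 CPM in the controls, which met, with 1 called lower. The part of these shifts in the differences of the 9 genes was not tested. Summed markers of smooth muscle and mural cells, erythroid cells, and glia and neural crest overlapped between the groups, with 0 called. Those of endocardium and endothelium overlapped too, at 548.9 and 847.7 CPM in the libraries labelled mutant and 627.1 to 889.9 CPM in the controls, with 0 called. Acta2 weighed most in the smooth muscle sum, at 1610 to 2080 CPM in the libraries labelled mutant and 717 to 1660 CPM in the controls. Cnn1, alone of the smooth muscle markers, did not overlap, at 263 to 290 CPM in the libraries labelled mutant against 327 to 411 CPM. Markers of neurons, in which Camk2a and Camk2b are best known, were low. The 8 neuron markers summed to 8.52 and 8.01 CPM in the libraries labelled mutant and 8.97 to 11.1 CPM in the controls, with 0 called and Snap25 and Th under 1 CPM in every library. The 5 skeletal muscle markers summed to 228.9 and 256.5 CPM in the libraries labelled mutant and 119 to 275 CPM in the controls, with 0 called. Nearly all of that was Ckm, the muscle creatine kinase, which heart muscle expresses as well, at 228 to 256 CPM in the libraries labelled mutant and 117 to 274 CPM in the controls. Of the others Myf5 was at 0, Myod1 and Pax7 were under 1 CPM in every library, and Myog reached 1.52 CPM in a control.

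Other genes of calcium-calmodulin signalling were read from a list of 52, of which 51 were in the table and 50 could be tested. Of the 50, 3 were called higher and 2 lower, where 0.463% and 0.899% of all tested genes were. On the log2 scale 31 of the 50 were above 0, where 48.6% of all tested genes were, and the median log2 fold change was 0.03, against -0.0080 over all tested genes. The 3 that rose were Hdac9, Mef2c and Mylk3, and the 2 that fell were Camk1d and Nfatc4.

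Hdac9, a class IIa histone deacetylase that binds and restrains MEF2, stood at 63.1 and 68.2 CPM in the libraries labelled mutant, against 43.1, 43.5, 41.7, 49.5 and 49.3 CPM in control replicates 1 to 5. Mef2c, a MADS-box factor of heart muscle, stood at 110.5 and 123 CPM in the libraries labelled mutant, against 79.8, 84.4, 81.6, 86.6 and 94.3 CPM in the controls. Neither gene overlapped between the groups, and the log2 fold changes were 0.53 (SE 0.09) and 0.45 (SE 0.09). Of the 8 class IIa deacetylases and MEF2 factors, 7 were above 0 and the median log2 fold change was 0.30, where over all tested genes 48.6% were above 0 and the median was -0.0080. The summed heart muscle markers were also higher, at 23800 and 28370 CPM in the libraries labelled mutant against 16580 to 20600 CPM in the controls, and their part in these differences and in that of Mylk3 was not tested. Hdac5, the most abundant of the 8, had 0.08 (SE 0.08) and was not called. Mef2a and Mef2d, picked out after their values were seen, had 0.41 (SE 0.10) and 0.35 (SE 0.09) and were not called here, at adjusted p of 0.0705 and 0.086 by the edgeR quasi-likelihood test, while the authors' deposited table lists both.

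Mylk3, the cardiac myosin light chain kinase, stood at 307 and 337 CPM in the libraries labelled mutant, against 194, 241, 236, 205 and 232 CPM in the controls, a log2 fold change of 0.54 (SE 0.10). Camk1d, a kinase of the CaMKI group, had 37 and 47 counts in the libraries labelled mutant, against 228, 190, 115, 131 and 123 in the controls. Its log2 fold change of -1.86 (SE 0.32) was the largest in size of the list, and every control lay well above both libraries labelled mutant. Nfatc4, an NFAT factor, stood at 9.37 and 10.2 CPM in the libraries labelled mutant, against 21.1, 17.9, 17.3, 14.6 and 16.6 CPM in the controls, a log2 fold change of -0.84 (SE 0.15). The fall of Camk1d and Nfatc4 accompanied that of the mesenchyme, macrophage and atrial muscle markers given above, whose part in it was not tested. Nfatc2, another NFAT factor, picked out after its values were seen, was above every control in both libraries labelled mutant and did not pass the test, at 25.17 and 23.01 CPM in the libraries labelled mutant against 15.8 to 19.08 CPM in the controls. Its log2 fold change was 0.48 (SE 0.11), with an adjusted p of 0.058 by the edgeR quasi-likelihood test, and the authors' deposited table lists it at 0.47 with a false discovery rate of 0.0169.

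The adjusted p of the 5 called genes was 0.024 to 0.0374 (edgeR, quasi-likelihood), and each call was lost without mutant replicate 2, at 0.195 to 0.293, a fit in which the spread comes from the controls alone. The log2 fold changes there were -1.94 for Camk1d, -0.89 for Nfatc4, 0.49 for Hdac9, 0.38 for Mef2c and 0.48 for Mylk3. With limma-voom Hdac9 alone kept its call (adjusted p = 0.0396), and Camk1d (0.0718), Nfatc4 (0.0512), Mef2c (0.0538) and Mylk3 (0.0512) lost it. Among the libraries that expressed Xist, Camk1d kept the call in the edgeR quasi-likelihood test (adjusted p = 0.0459). Nfatc4 (0.11), Hdac9 (0.137), Mef2c (0.213) and Mylk3 (0.131) lost it by that test. Camk1d lost it also without control replicate 2 (0.0545) or mutant replicate 1 (0.0767), Nfatc4 without control replicate 1 (0.0529), control replicate 2 (0.0691) or mutant replicate 1 (0.0809), Hdac9 without control replicate 1 (0.072) or 2 (0.0725), Mef2c without control replicate 1 (0.0975), 2 (0.0952), 3 (0.071) or 4 (0.0544), and Mylk3 without control replicate 1 (0.0741), 2 (0.0632), 4 (0.055) or mutant replicate 1 (0.0542).

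**Figure D5:**
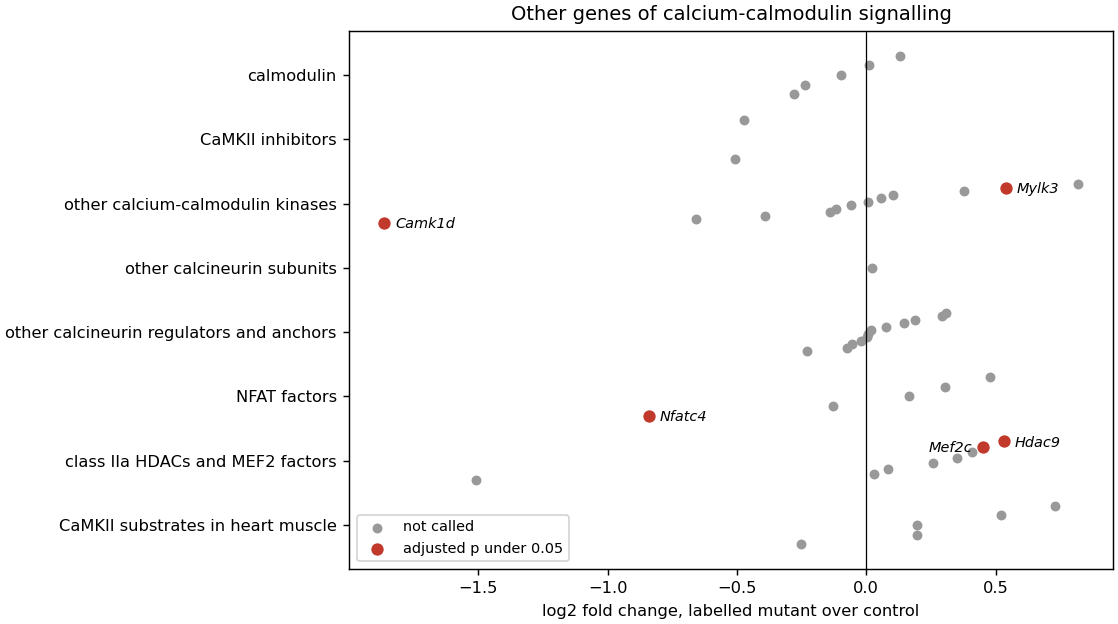
Log2 fold change, libraries labelled mutant over controls (horizontal axis), of the 50 tested genes of the list, by class (rows). Red points were called at an adjusted p under 0.05 (edgeR, quasi-likelihood): Hdac9, Mef2c and Mylk3 are to the right of 0 and Camk1d and Nfatc4 to the left.

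In the other classes no gene was called. Camk2n1, an inhibitor of CaMKII, was below every control in both libraries labelled mutant, at 4.67 ± 0.0827 CPM (SD, n = 2) in the 2 embryos labelled mutant and 6.48 ± 0.885 CPM (SD, n = 5) in the controls, a log2 fold change of -0.47 (SE 0.18) with an adjusted p of 0.204 by the edgeR quasi-likelihood test. Ppp3cc, another catalytic chain of calcineurin, was at 11.3 ± 0.0688 CPM in the libraries labelled mutant and 11.1 ± 0.157 CPM in the controls, a log2 fold change of 0.02 that was -0.0068 with upper-quartile factors, and Ppp3r2 had no counts. Fkbp1a, an immunophilin that binds calcineurin in the presence of the drug FK506, was at 385 ± 35.1 CPM in the libraries labelled mutant and 406 ± 28.8 CPM in the controls, and its sign turned without mutant replicate 2 (log2 fold change 0.027, against -0.07 with all libraries). Nfat5, an NFAT-related factor that does not need calcineurin, was listed in the same class as the called Nfatc4 and was itself not called. Its level was 63.8 ± 16.1 CPM in the libraries labelled mutant and 51.7 ± 9.37 CPM in the controls.

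Pln, which encodes phospholamban, a CaMKII substrate that restrains the calcium pump, was above every control in both libraries labelled mutant, at 1655 ± 196.5 CPM (SD, n = 2) in the 2 embryos labelled mutant and 1155 ± 174 CPM (SD, n = 5) in the controls. Its log2 fold change was 0.52 (SE 0.14), and it was not called (adjusted p = 0.0974, edgeR quasi-likelihood), while DESeq2 called it (0.0142). Cacna1c, the L-type calcium channel, picked out after its values were seen, had 0.73 (SE 0.19) and an adjusted p of 0.0874 by the same edgeR test. The authors' deposited table lists Pln and Cacna1c at log fold changes of 0.51 and 0.73.

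The genes whose levels followed Camk2a most closely over the 7 libraries, among 13387 tested genes of at least 1 CPM, were Osbp, an oxysterol-binding protein (Pearson r 0.99), Acacb, a mitochondrial-membrane acetyl-CoA carboxylase (0.987), Phka2, a regulatory chain of phosphorylase kinase (0.987), Slc12a5, a potassium-chloride cotransporter (0.986), and Pcnt, a centrosome protein (0.985). The libraries are the same for all genes, the best values out of many were taken, and the groups stand apart for Camk2a, so these r are a description. Acacb stood at 129 ± 18.4 CPM (SD, n = 2) in the 2 embryos labelled mutant and 72.6 CPM on average (n = 5) in the controls, with a log2 fold change of 0.83 (SE 0.12), while that of Osbp was 0.20 (SE 0.08).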

How the data were processed

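Left ventricles of 7 mouse embryos were sequenced (poly(A), single-end, a TruSeq kit that does not mark strand, per the labels' protocols). The authors deposited raw read counts for each gene symbol. Per the submitters' processing notes the build was mm10 and the tools included TopHat2 2.1.1 and featureCounts. How reads that match several genes were treated is not given in the sources used, so reads in sequence shared by the CaMKII paralogs are uncertain. The authors' deposited table of 668 genes gives log2 fold changes (base taken from a median difference of 0.00542 to the values here), p-values and false discovery rates up to 0.05. Its test is not named.

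Counts were tested in R 4.3.3 with edgeR 4.0.16: filterByExpr (minimum count 10, total 15), TMM, glmQLFit with robust estimation, genotype as the only term, and Benjamini-Hochberg adjustment over all 14691 genes with a threshold of 0.05. The SE is the log2 fold change divided by the square root of F. Alternatives used DESeq2 1.42.0, limma 3.58.1, other scalings, no filter, no robust estimation, a replicate block, each library left out, the libraries with Xist over 10 CPM and, added later, the likelihood ratio test. Exon lengths came from GENCODE M21 (GRCm38). Simulated data with 200 changed genes gave recovery of 50.6% at 1.5-fold and 87.9% at 2-fold, with 7.23% false calls.

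Members and lists were chosen with earlier results of these data known. Named were all 9 genes, every called gene and the most abundant gene of each of the 8 pathway classes, and the 5 genes most like Camk2a; 1 gene that this rule names is not reported here. Chi-square per degree of freedom between libraries of 1 group was 10.5 to 33.6, so none was a copy. Figures used Python 3.11.15 and matplotlib 3.10.9.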

Additional observations from a re-analysis of the deposited data

Results flagged for a closer look

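Ppp3r1 in control replicate 5, at 113 CPM, stood apart from the other 4 controls, which lay between 80.6 and 89.0 CPM. Its gap to the nearest control was 0.736 of the range of the 5. Nfat5 in control replicate 4, at 68.0 CPM, stood apart from the other controls, which lay between 44.0 and 50.0 CPM. Of 25 genes looked at in the controls these 2 passed a limit that chance passes in about 1 of 20.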

How the results depend on the processing

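Over the whole table the number of called genes, 200 with all libraries and the edgeR quasi-likelihood test, was 786 with DESeq2, 773 with the likelihood ratio test, 114 with limma-voom, 66 among libraries with Xist, 52 without control replicate 5 and mutant replicate 2 together, and 12 to 275 with 1 library left out. Of the 9 genes, 2 were called with DESeq2 and with the likelihood ratio test, 0 with limma-voom, among libraries with Xist and without that pair, and 0 to 1 with 1 library left out. Of the pathway genes 10, 10, 1, 1 and 0 were called with DESeq2, the likelihood ratio test, limma-voom, libraries with Xist and without that pair, and 0 to 5 with 1 library left out. The replicate block gave 811 genes, 2 of the 9 and 7 pathway genes, with Camk2d at 0.52. Same-numbered libraries deviated together at correlations of 0.08 and 0.01. With 2 libraries labelled mutant, the deviations of the 2 mirror each other, so these values cannot tell whether same-numbered libraries share a litter or batch.

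Camk2a was not called with limma-voom (0.55), among libraries with Xist (0.46) or without that pair (0.44), and ran from 0.42 to 0.68 with 1 library left out. Camk2d was called with DESeq2 (0.43) and the likelihood ratio test (0.43). Without 1 library, Camk2b ran from -0.27 to 0.50, Ppp3ca from -0.35 to 0.13 and Fkbp1a from -0.17 to 0.027. Without that pair Camk2b was -0.16 and Fkbp1a 0.070, and Ppp3cc was -0.0068 with upper-quartile factors. All are log2 fold changes, and the cause was not tested. The 5 others of the 9 genes kept their sign and stayed uncalled in all 17 alternatives. With 2 libraries labelled mutant and recovery of 50.6% of simulated 1.5-fold changes, many differences of the size seen here would be missed.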
